A study of Mus musculus with 2 samples.

Results

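Cytotoxic lymphocytes kill by releasing granules that hold perforin, which opens the membrane of the target cell, and granzymes, serine proteases that enter through that opening and cut proteins inside. Granzyme B cuts after aspartate and triggers caspases, granzymes A and K cut after basic residues, and the rodent granzymes C, D, E and F are encoded beside granzyme B by genes that arose through duplication. Nkg7 is a membrane protein of the granule and of the cell surface that takes part in degranulation. NK cells and CD8+ T cells are the main carriers of these granules in tumors. The genes described here were chosen by name and are 9 of the 27998 rows of the gene table: Gzma, Gzmb, Gzmc, Gzmd, Gzme, Gzmf and Gzmk (granzymes), Prf1 (perforin) and Nkg7. All 9 had a row with that symbol, and none of them was used to class the cells.

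The cells came from Lewis lung carcinoma (LLC), a mouse lung cancer line grown under the skin of C57/BL6 mice implanted at 8 weeks of age; the age label reads 10 weeks, and tumors were taken on day 14. CD45+ leukocytes were sorted, and 1 droplet-based 3′-end library was made per genotype from 3 pooled mice, so the comparison of genotypes has no replicate and no test. By title, the library labelled wt is the control with floxed miR-21 alleles (mir-21flox/flox) and the library labelled cko carries the same floxed alleles plus lysmCre, so both groups hold the floxed gene. LysM-Cre is driven by the lysozyme 2 promoter, which is active in macrophages and granulocytes and not, as a rule, in lymphocytes. The sample labels disagree: the source field gives the conditional knockout to the library titled wt, and a protocol field names a macrophage sort although lymphocytes are present. The libraries are therefore called by their titles, as the libraries labelled wt and cko, and every direction between them rests on those titles. The gene table has no row for the miR-21 gene itself. Lyz2, the gene that carries the LysM-Cre insertion, stood at 18997 CPM (counts of the gene scaled to a class total of 1000000 UMIs) in macrophages and monocytes of the library labelled wt and at 8845 in those of the library labelled cko.

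The library labelled wt held 2445 cells after filtering (24492486 UMIs before it, median 8359 per cell) and the library labelled cko held 2704 (27163485 UMIs, median 8247); a UMI (unique molecular identifier) marks 1 captured RNA molecule. Cells were classed by UMIs of marker genes. NK cells (at least 2 UMIs of Ncr1 and Klrb1c in sum, at most 1 of the Cd3 genes) numbered 52 and 49 in the libraries labelled wt and cko. Other lymphocytes that carry these markers without Cd3 would fall under the same gate. CD8 T cells (at least 2 UMIs of Cd3d, Cd3e and Cd3g, Cd8a or Cd8b1 present, Cd4 and the NK markers at 0) numbered 66 and 104, CD4 T cells 20 and 25, T cells with neither coreceptor 20 and 24, and T cells with an NK marker 31 and 24. Macrophages and monocytes made up 86.1% and 85.7% of cells. Every class other than macrophages and monocytes, which needed at least 5 UMIs of 6 macrophage genes, was allowed at most 4 of them, and the 45 cells per library that met a T or NK gate above that limit were set apart. Genes that the gates did not use followed the labels: 7 of 7 tested T cell genes were higher in CD8 T cells and 7 of 8 NK genes were higher in NK cells, while Cd6, a T cell surface receptor, had 0 UMIs in NK cells of both libraries. Of 5 tested macrophage genes 0 passed the test between NK and CD8 T cells, and their list summed to 575 and 458 CPM in NK cells and 620 and 525 in CD8 T cells. The libraries shared 5 cell barcodes.

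Gzmc, Gzmd, Gzme, Gzmf and Gzmb lie on the minus strand of mouse chromosome 14 (GRCm38, GENCODE M21) within 145 kb, from chr14:56117626-56120625 (Gzme) through chr14:56129556-56132608 (Gzmd), chr14:56205263-56211417 (Gzmf) and chr14:56231441-56234656 (Gzmc) to chr14:56258838-56262260 (Gzmb). Gzmg, a further granzyme of the same row that is no member but is used below, lies at chr14:56156582-56159579. Gzma (chr13:113093825-113100981) and Gzmk (chr13:113171608-113225908) are neighbours on the minus strand of chromosome 13. Prf1 (chr10:61297833-61304680) and Nkg7 (chr7:43437073-43438249) lie alone on plus strands.

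The promoters of Gzmc, Gzmd, Gzme, Gzmf and Gzmg are shown because these genes were found in the same cells, and that of Gzmb because it stands in the same row with another pattern. Each window runs 5′ to 3′ from 250 bases before to 50 bases after the RefSeq start on GRCm38.p6, minus strand, and capitals mark the longest run that the windows of Gzmc to Gzmg all share.
Gzmc (chr14:56234608-56234907): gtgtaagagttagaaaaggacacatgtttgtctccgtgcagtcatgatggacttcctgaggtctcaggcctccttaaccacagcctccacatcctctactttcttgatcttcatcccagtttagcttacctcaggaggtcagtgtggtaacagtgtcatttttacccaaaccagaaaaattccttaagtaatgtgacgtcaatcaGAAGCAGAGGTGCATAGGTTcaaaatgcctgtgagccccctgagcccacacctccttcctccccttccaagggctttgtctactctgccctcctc
Gzmd (chr14:56132544-56132843): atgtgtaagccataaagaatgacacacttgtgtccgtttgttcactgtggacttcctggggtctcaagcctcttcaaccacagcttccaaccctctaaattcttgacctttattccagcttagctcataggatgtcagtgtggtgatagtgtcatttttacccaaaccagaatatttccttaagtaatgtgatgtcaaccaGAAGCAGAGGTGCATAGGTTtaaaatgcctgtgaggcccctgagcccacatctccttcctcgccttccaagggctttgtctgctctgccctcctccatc
Gzme (chr14:56120576-56120875): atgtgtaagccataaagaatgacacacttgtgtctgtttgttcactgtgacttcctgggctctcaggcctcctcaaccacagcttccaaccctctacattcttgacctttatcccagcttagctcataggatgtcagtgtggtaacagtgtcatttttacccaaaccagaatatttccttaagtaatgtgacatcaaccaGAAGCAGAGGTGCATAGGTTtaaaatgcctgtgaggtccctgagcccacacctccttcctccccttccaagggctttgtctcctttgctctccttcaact
Gzmf (chr14:56211358-56211657): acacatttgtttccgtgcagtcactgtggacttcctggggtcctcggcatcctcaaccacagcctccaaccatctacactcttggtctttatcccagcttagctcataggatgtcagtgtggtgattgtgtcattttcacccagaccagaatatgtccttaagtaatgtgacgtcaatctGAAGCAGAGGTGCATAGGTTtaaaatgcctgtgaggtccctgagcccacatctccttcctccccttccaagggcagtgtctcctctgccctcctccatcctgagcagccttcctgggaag
Gzmg (chr14:56159530-56159829): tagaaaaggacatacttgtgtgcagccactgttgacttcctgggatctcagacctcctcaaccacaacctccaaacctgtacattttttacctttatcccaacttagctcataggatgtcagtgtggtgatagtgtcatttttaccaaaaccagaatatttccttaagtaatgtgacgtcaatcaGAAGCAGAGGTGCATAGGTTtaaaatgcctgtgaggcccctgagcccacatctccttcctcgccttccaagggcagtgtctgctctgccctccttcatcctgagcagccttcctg
Gzmb (chr14:56262285-56262584): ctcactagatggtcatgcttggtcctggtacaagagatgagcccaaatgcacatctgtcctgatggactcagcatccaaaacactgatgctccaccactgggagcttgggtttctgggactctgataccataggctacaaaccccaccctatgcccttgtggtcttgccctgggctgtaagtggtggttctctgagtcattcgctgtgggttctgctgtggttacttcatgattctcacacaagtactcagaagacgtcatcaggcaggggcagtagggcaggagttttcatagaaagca
The shared run is 20 bases long and was found in 5 of 27025 promoters of the same length, which are these 5 genes. Among the 5 windows, identity over the aligned columns ran from 84.6% (Gzmc with Gzmg) to 93.7% (Gzmd with Gzme), and the window of Gzmb holds no such run. Both strands of all promoters were searched for 5 motifs. The letters ACCACA, a core of RUNX binding sites, were in 8 of the 9 member promoters on either strand (all but Gzmk) and in 16.9% of all promoters. The letters TGACGTCA, a cyclic AMP response element, were in the windows of Gzmc, Gzmf and Gzmg, and in 1.88% of all promoters. TTTAAAA was in 4 of the 9 (Gzmd, Gzme, Gzmf and Prf1) and in 8.65% of all promoters, TGANTCA in 1 (Gzmb) and in 7.93%, and AGGTGTGA in 1 (Nkg7) and in 1.27%. Such matches describe the letters only.

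Gene copies this alike could share reads, so the transcript ends were compared. Of the 403 windows of 98 bases (the length of the cDNA read) in the last 500 bases of each member's longest coding transcript, 0 occurred in a transcript of any other gene of GENCODE M21, so an error-free read from these ends matches a single gene. How reads with errors were assigned is not given in the sources used here.

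NK and CD8 T cells together held 77.3% of all member UMIs of the library labelled wt and 84.8% of the library labelled cko. NK cells spent 2.75% and 2.15% of their UMIs on the 9 genes in the libraries labelled wt and cko, CD8 T cells 1.04% and 1.08%, CD4 T cells 0.243% and 0.276%, and macrophages and monocytes 0.00355% and 0.00245%. These pooled shares lean on a few cells. The median cell spent 1.37% and 0.843% in NK cells and 0.623% and 0.614% in CD8 T cells, and a single NK cell of the library labelled wt held 4436 member UMIs. The median cell held 4 of the 9 genes in NK and in CD8 T cells of both libraries. Both the pooled and the median share were higher in NK than in CD8 T cells in both libraries, and at most 10.1% of the UMIs of any NK cell came from these genes.

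Macrophages and monocytes, which are not expected to transcribe these genes, give the background level of detection; 1498 of 2106 and 1839 of 2317 of them held no UMI of any member. They held a UMI of Gzmb in 10.1% and 6.39% of cells, of Nkg7 in 8.69% and 8.63%, of Gzma in 4.23% and 2.81%, and of Prf1 in 0.332% and 0.388%, in the libraries labelled wt and cko; after each cell was thinned to 3000 UMIs, Gzmb was in 3.80% and 2.29%. For the chromosome 14 row the shares in macrophages and monocytes were 3.99% and 2.11% (Gzmc), 2.75% and 1.04% (Gzmd), 1.19% and 0.302% (Gzme) and 2.75% and 1.68% (Gzmf), and for Gzmk 0.190% and 0.0863%. Gzmc was also in 3 of 29 and 3 of 51 dendritic cells, at 1 UMI each. Shares in lymphocytes are read against these values.

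**Figure D1:**
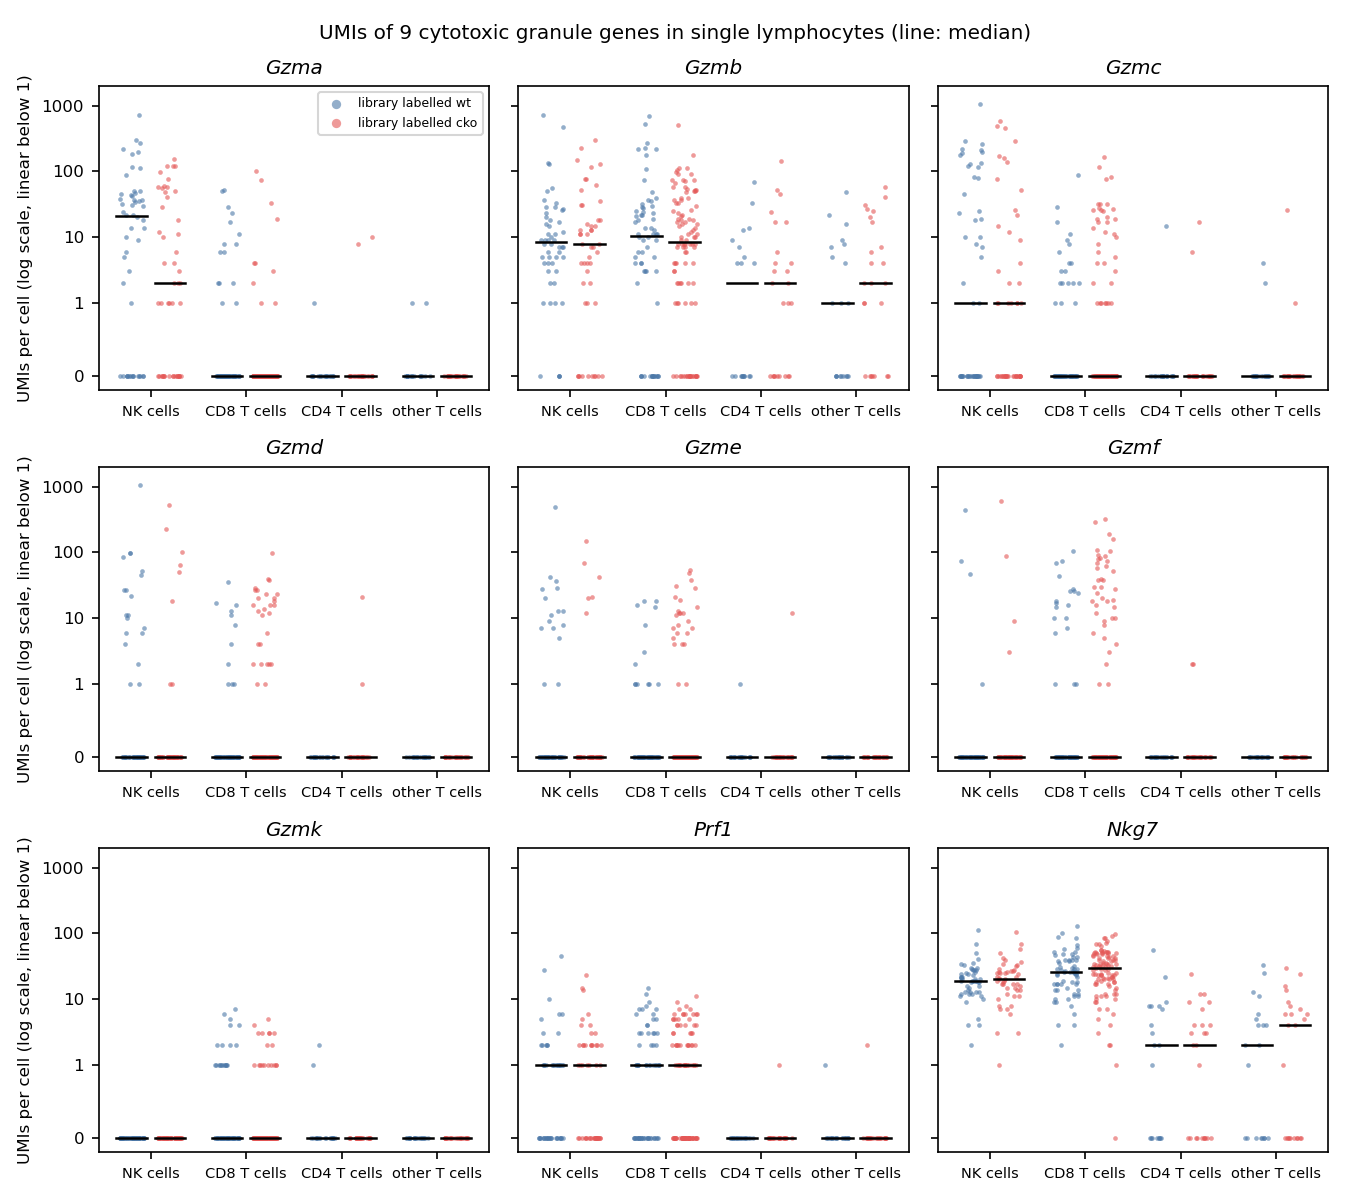
UMIs per cell of each gene (vertical axis, log scale, linear below 1) in NK, CD8 T, CD4 T and other T cells of the libraries labelled wt (blue) and cko (red); each point is a cell and lines are medians. Gzmb and Nkg7 reach every lymphocyte class, Gzma and Gzmc reach their highest cells among NK cells, Gzmf is in more CD8 T than NK cells, and Gzmk is at 0 in all 52 and 49 NK cells.

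The question of which killer cell carries which granzyme was addressed by summing UMIs per class and library and testing NK against CD8 T cells with the library as a block (edgeR quasi-likelihood test, Benjamini-Hochberg adjustment over 5539 genes; 4 sums). Of the 9 members, 4 were higher in NK cells (Gzma, Gzmc, Gzmd and Gzme) and 2 in CD8 T cells (Gzmk and Nkg7), while Gzmb, Gzmf and Prf1 did not pass. Over all genes tested, 4.93% were higher in NK cells and 4.37% in CD8 T cells. Each sum pools 3 mice and its cells are not replicates, and with 1 residual degree of freedom the error is mostly borrowed from other genes (15.02 prior degrees of freedom). For Gzma, Gzmb, Gzmc, Gzmd, Gzme, Gzmf and Nkg7 the SE is smaller than the difference between the values of the separate libraries, so these p-values understate that spread. Under DESeq2, which called 1.28% of genes higher in NK cells and 0.722% higher in CD8 T cells, Gzma, Gzmc and Gzmd passed and the other 6 members did not.

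Gzma, a tryptase of the granule, was the clearest NK gene of the set. In the library labelled wt it stood at 6403 CPM in NK cells and 352 in CD8 T cells, and in the library labelled cko at 2965 and 245. Both NK sums lay above both CD8 T sums, as they also did for Gzmc, Gzmd, Gzme and Prf1, the last of which was not called. The log2 fold change was 3.93 ± 0.12 (SE; edgeR adjusted p = 1.3e-12), with library values of 4.19 for wt and 3.60 for cko. A UMI was found in 37 of 52 and 31 of 49 NK cells, that is in 71.2% (95% exact binomial interval 56.9 to 82.9) and 63.3%, against 22.7% and 9.62% of CD8 T cells. Among NK cells of the library labelled wt the median was 21 and the highest cell had 722 UMIs; among those of the library labelled cko the median was 2 and the highest 155. Most T cells without CD8 lacked the gene: CD4 T cells held 1 UMI in 20 cells and 18 UMIs in 25. T cells with an NK marker, which every setting left out of the T cells compared, stood at 1126 and 557 CPM, above the CD8 T cells. The fold change therefore holds for T cells chosen to lack NK markers.

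Gzmc was the most NK-weighted granzyme of the chromosome 14 row among the members. NK cells had 7540 and 6410 CPM in the libraries labelled wt and cko, and CD8 T cells 313 and 863. The log2 fold change was 3.72 ± 0.24 (edgeR adjusted p = 1.4e-08), and the library values, 4.59 for wt and 2.89 for cko, differed by more than its SE. A UMI was found in 51.9% and 51.0% of NK cells and in 28.8% and 34.6% of CD8 T cells. The near-even shares of the NK cells hold at 1 UMI: with at least 2 UMIs required they were 48.1% (25 of 52) and 36.7% (18 of 49), and after thinning to 1000 UMIs 42.3% and 34.7%, with exact intervals that overlap. Amounts per cell were far apart: among NK cells of the library labelled wt 25 had 0 UMIs, 21 had at least 10 and 12 had at least 100.

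Gzmd and Gzme moved with Gzmc at lower detection. Gzmd was at 3453 and 2500 CPM in NK cells and 177 and 494 in CD8 T cells, with a log2 fold change of 3.26 ± 0.28 (edgeR adjusted p = 4.1e-07) and library values of 4.29 and 2.34. Gzme was at 1576 and 789 in NK cells and 138 and 383 in CD8 T cells, with 2.21 ± 0.34 (edgeR adjusted p = 0.00034; 0.61 under DESeq2) and library values of 3.51 and 1.04. These sums rest on few cells. A single NK cell of the library labelled wt, the deepest NK cell with 43935 UMIs, held 67.5% of the class's Gzmd and 68.0% of its Gzme, and a single NK cell of the library labelled cko held 53.3% of the Gzmd. Without the top cell of each gene, class and library the fold changes were 2.32 (edgeR adjusted p = 3.1e-06) and 1.22 (0.0082), while that of Gzmc was 3.78. With at most 1 macrophage UMI allowed per lymphocyte, Gzmd was at 1.38 and Gzme at 0.80. In terms of cells rather than UMIs, Gzmd was in 36.5% and 16.3% of NK cells and in 16.7% and 26.9% of CD8 T cells, so in the library labelled cko more CD8 T than NK cells held it.

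Gzmf stood apart from its neighbours. It was in 7.69% (4 of 52 cells) and 8.16% (4 of 49) of NK cells, and in 28.8% (19 of 66) and 38.5% (40 of 104) of CD8 T cells. Its summed level did not pass the test (1239 and 1805 CPM in NK cells, 795 and 2271 in CD8 T cells; log2 fold change 0.17 ± 0.16, edgeR adjusted p = 0.60), and the libraries went opposite ways. In each library 1 NK cell held most of the class's Gzmf, 447 of 569 UMIs (78.6%) in wt and 614 of 714 (86.0%) in cko. Without the top cell of each class and library, Gzmf was higher in CD8 T cells, with a log2 fold change of -2.07 (edgeR adjusted p = 1.4e-05). With at most 1 macrophage UMI allowed per lymphocyte it was -2.49, and set against all T cells without NK markers it was 0.64; in both of these fits the spread was taken wholly from other genes, and no p is given.

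Gzmk, a tryptase known from memory-like and early effector T cells, had 0 UMIs in all NK cells. The 0 of 52 and 0 of 49 cells allow shares of cells with a UMI of up to 5.77% and 6.12% when taken as 3 counts of the total, and of up to 6.85% and 7.25% by the 95% exact binomial interval, for counting error only. CD8 T cells held 45 UMIs in 20 cells (30.3%) and 38 UMIs in 19 cells (18.3%), and no cell had more than 7. Against a floor of 3 counts in NK cells, the level in CD8 T cells was 11.1-fold higher in the library labelled wt and 5.09-fold in cko. These ratios leave out the counting error of the CD8 T cells. With it, the 95% exact interval for the log2 ratio of NK over CD8 T cells reached up to -3.11 in wt and -1.98 in cko. The edgeR adjusted p was 3.1e-05, and Gzmk did not pass under DESeq2 (adjusted p = 1.00). T cells with an NK marker also had 0 UMIs in both libraries, and CD4 T cells had 3 UMIs in 1 library.

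Gzmb, the chief aspartate-cutting granzyme, was the most broadly detected granzyme. It was in 92.3% and 79.6% of NK cells, 77.3% and 80.8% of CD8 T cells, 50% and 64.0% of CD4 T cells and 55% and 70.8% of T cells with neither coreceptor, all above its share in macrophages. Medians per cell were close: 8.5 and 8 UMIs in NK cells, 10.5 and 8.5 in CD8 T cells. The class sums did not pass the test (log2 fold change 0.14 ± 0.10, edgeR adjusted p = 0.50), and the libraries disagreed in direction: NK cells had 4431 CPM against 5103 in CD8 T cells in the library labelled wt, and 3850 against 2886 in the library labelled cko. A few cells carried much of these sums, since 2 of 52 NK cells and 4 of 66 CD8 T cells of the library labelled wt held at least 50% of their class's Gzmb. Set against all T cells without NK markers in place of CD8 T cells, the log2 fold change was 0.42, and with at most 1 macrophage UMI allowed it was 0.24, with no p for the reason given for Gzmf. The direction turned without the top cell of each class and library (-0.02) and under stricter gates (-0.13). Dendritic cells held Gzmb in 10.3% and 11.8% of cells, at most 1 UMI each, and B cells in 0 of 4 and 0 of 3.

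Prf1, the pore-forming protein, was sparse. NK cells had 285 and 263 CPM and CD8 T cells 220 and 194, and the log2 fold change of 0.44 ± 0.18 did not pass (edgeR adjusted p = 0.16). Against all T cells without NK markers the log2 fold change was 0.89, with no p for the same reason. A UMI was found in 53.8% and 53.1% of NK cells and 59.1% and 56.7% of CD8 T cells, with a median of 1 in both classes, so the shares and medians of both classes lay close together. Among T cells without CD8 or an NK marker it was nearly absent: CD4 T cells held 0 and 1 UMIs and T cells with neither coreceptor 1 and 2, although Gzmb was in at least 50% of both. T cells with an NK marker held it in 19.4% and 37.5% of cells.

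Nkg7 was the most uniform of the 9. Every NK cell and every CD8 T cell but 1 had a UMI, with medians of 19 and 20 in NK cells and 26 and 29.5 in CD8 T cells. The highest cell held only 9.56% and 9.12% of the sum in NK cells. CD8 T cells were slightly higher, 3268 and 3413 CPM against 2550 and 2909, for a log2 fold change of -0.26 ± 0.077 (edgeR adjusted p = 0.0448). The call was lost under DESeq2 (adjusted p = 1.00), without the library block (0.13), without the limit on macrophage UMIs (0.79) and after removal of cells with the highest doublet scores (0.12). Set against all T cells without NK markers the direction turned, with a log2 fold change of 0.06 and no p for the reason given for Gzmf. CD4 T cells held Nkg7 in 60% of cells of each library at a median of 2.

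**Figure D2:**
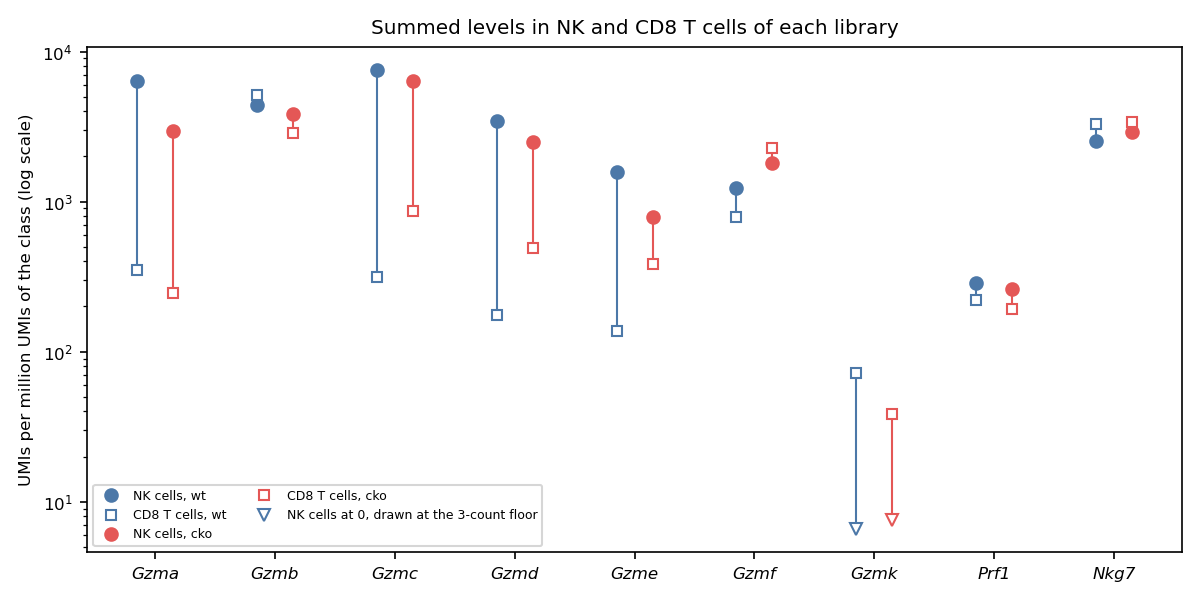
Summed level in CPM (vertical axis, log scale) of each gene in NK cells (filled circles) and CD8 T cells (open squares) of the libraries labelled wt (blue) and cko (red); lines join the classes of 1 library, and open triangles mark NK sums of 0 drawn at the floor of 3 counts. Gzma, Gzmc, Gzmd and Gzme are higher in NK cells of both libraries, while Gzmb and Gzmf change order between libraries.

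Other genes of the granule pathway were tested in the same fit, from lists drawn up with earlier results of these data known. Of 2 further granzymes tested, Gzmg was higher in NK cells (2737 and 1453 CPM against 14.5 and 4.06), but only 3 of 52 and 4 of 49 NK cells held it, and 1 cell held 1245 of the 1257 UMIs of the library labelled wt and another 373 of the 575 of the library labelled cko. Of 9 genes of the granule matrix and of protease processing, Ctsw, a cathepsin of cytotoxic cells, was higher in NK cells (log2 fold change 0.89, edgeR adjusted p = 0.00047), and Srgn, the proteoglycan that packs granzymes, stood at 880 and 900 CPM in NK cells and 699 and 893 in CD8 T cells. Of 8 genes of granule release, Vamp8, a vesicle fusion protein, was higher in CD8 T cells (-0.64, edgeR adjusted p = 0.038).

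Serpin inhibitors protect a killer cell from its own proteases. Of 4 tested, Serpinb6b (0.64, edgeR adjusted p = 0.0027) and Serpinb9, the granzyme B inhibitor (0.56, edgeR adjusted p = 0.023), were higher in NK cells. Of 7 transcription factors tested, Eomes (1.80), Tcf7 (1.03) and Id2 (0.37) were higher in NK cells at edgeR adjusted p of 0.00036, 0.041 and 0.033, and Tbx21 was not called (0.37, 0.48). Of 3 receptor chains for IL-2 and IL-15, Il2rb was higher in NK cells (0.54, edgeR adjusted p = 0.024). Fasl, the single death ligand that passed the filter on low counts, stood at 113 and 137 CPM in NK cells and 116 and 112 in CD8 T cells. The medians of these lists lay between 0.10 and 0.39 apart from the 2 further granzymes (4.78), against 0.0076 over all genes.

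In single cells the genes of the chromosome 14 row occurred together. Gzmd and Gzme were the closest pair, with a Pearson correlation of log(1 + UMIs per 10000) across cells of 0.96 and 0.99 in NK cells and 0.83 and 0.91 in CD8 T cells of the libraries labelled wt and cko. The points share library and depth, so these are descriptions. Of the 19 NK cells of the library labelled wt with Gzmd, 18 also held Gzmc and 15 held Gzme, and of the 8 such cells of the library labelled cko, 7 held Gzmc and 6 held Gzme. Gzmc was the commonest of the 4 in NK cells, and cells with Gzmd, Gzme or Gzmf were nearly all found among those with Gzmc.

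In CD8 T cells Gzmf and Gzmc were the commonest of the 4, tied at 19 of 66 cells in the library labelled wt and at 40 and 36 of 104 in the library labelled cko. Of the cells with Gzmd, 8 of 11 in the library labelled wt and 27 of 28 in the library labelled cko held Gzmf, and of those with Gzmc, 13 of 19 and 32 of 36 did. Of the cells with Gzme, 9 of 13 and 24 of 25 held Gzmf. All 19 and all 40 CD8 T cells with Gzmf also held Gzmb (14.7 and 32.3 if unrelated), and their median Gzmb was 26.7 and 25.8 UMIs per 10000 against 8.24 and 4.61 in CD8 T cells without Gzmf. These cells were also deeper, with a median of 12614 and 11258 UMIs per cell against 6164 and 7000.5. The part of depth in their detection was not tested beyond thinning, after which Gzmf was still in 22.7% and 36.5% of CD8 T cells.

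**Figure D3:**
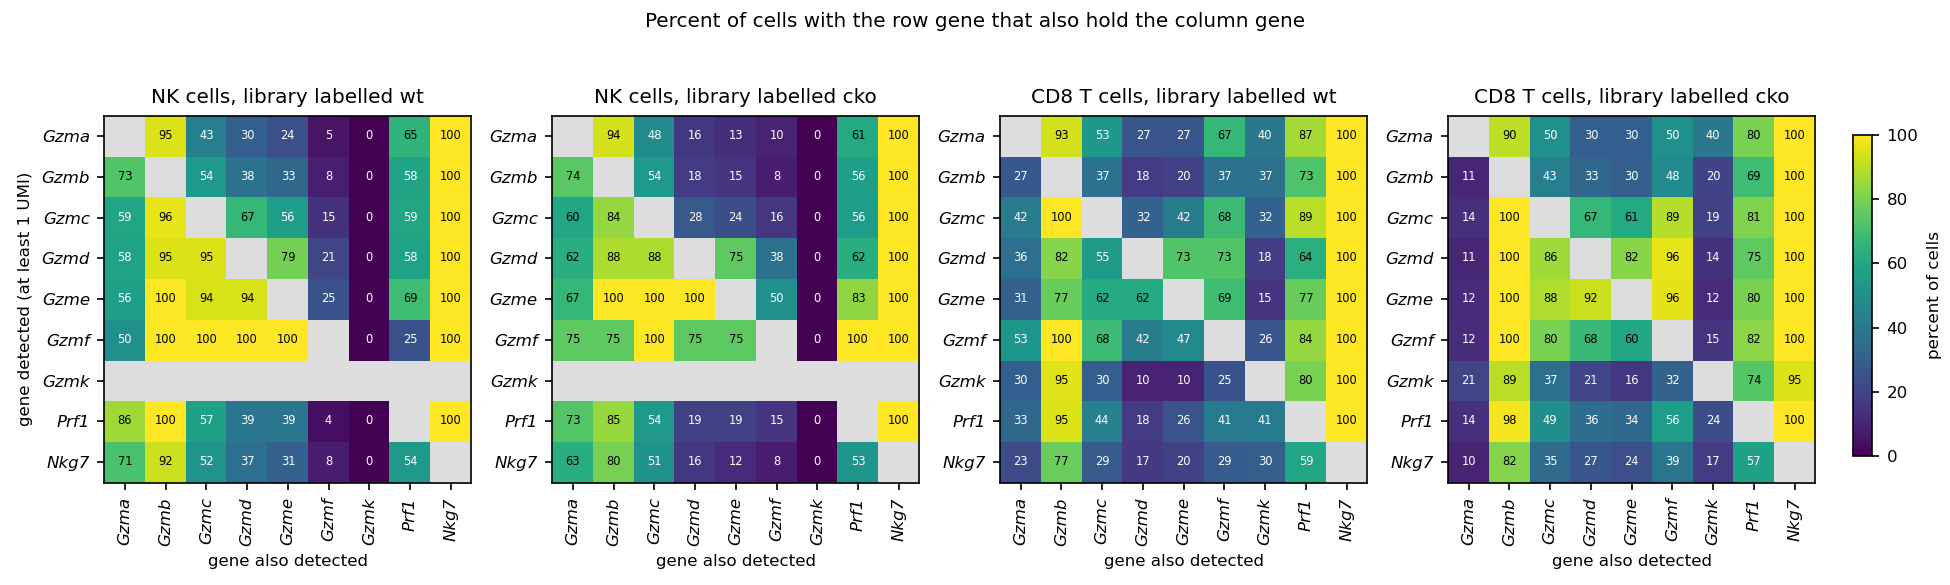
Percent of the cells with the row gene (at least 1 UMI) that also held the column gene, in NK and CD8 T cells of both libraries; grey marks the gene itself or no cell with the row gene. In CD8 T cells of the library labelled cko 96.4% of cells with Gzmd held Gzmf, against 21.1% and 37.5% in NK cells of the libraries labelled wt and cko.

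At least 2 of Gzmc, Gzmd, Gzme and Gzmf were detected in 18 of 52 NK cells (34.6%, 95% exact binomial interval 22 to 49.1) and 16 of 66 CD8 T cells (24.2%, 14.5 to 36.4) of the library labelled wt. In the library labelled cko it was 8 of 49 NK cells (16.3%, 7.32 to 29.7) and 35 of 104 CD8 T cells (33.7%, 24.7 to 43.6). The order of the classes thus differed between libraries, with intervals that overlap in the library labelled wt and, narrowly, in the library labelled cko. All 4 were found in 4 and 3 NK cells and in 6 and 21 CD8 T cells of the libraries labelled wt and cko.

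**Figure D4:**
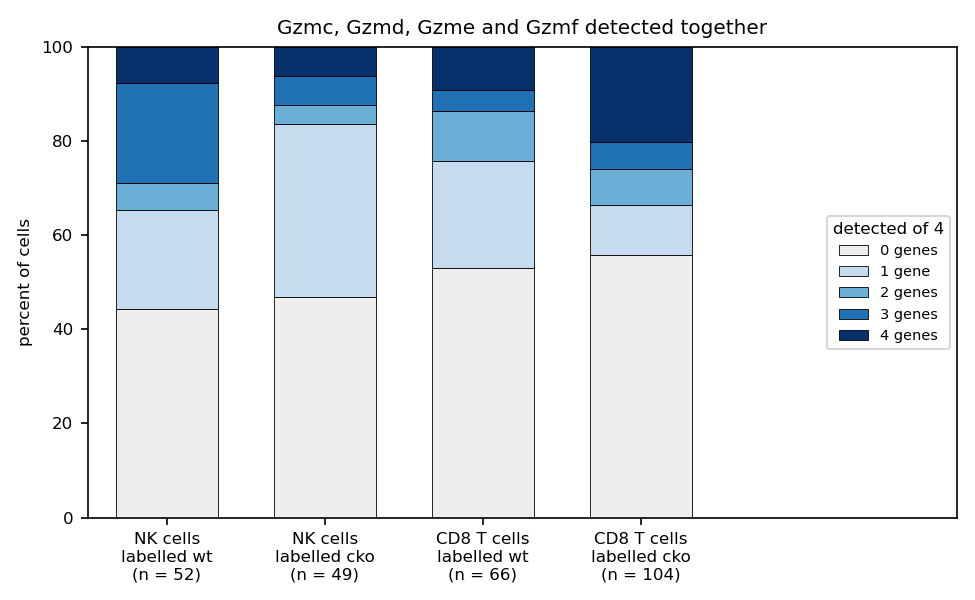
Percent of NK and CD8 T cells of each library (vertical axis) by the number of Gzmc, Gzmd, Gzme and Gzmf detected in the cell. Cells with none make up 23 of 52, 23 of 49, 35 of 66 and 58 of 104 from left to right, and cells with all 4 are commonest in CD8 T cells of the library labelled cko (21 of 104).

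In NK cells of the libraries labelled wt and cko, Gzma correlated with Gzmb at 0.48 and 0.36, and with Gzmc at -0.25 and -0.21. With Nkg7, found in every NK cell, Gzma correlated at 0.44 and 0.47 and Gzmc at -0.47 and -0.32. The signs are thus not particular to the pairs of granzymes. NK cells with a UMI of Gzmc had a median of 8.71 and 1.66 Gzma UMIs per 10000 against 71.8 and 7.12 in NK cells without. Means of raw UMIs gave another order in the library labelled wt, 65.2 with Gzmc and 47.2 without, since the cell with 722 Gzma UMIs also held 1071 of Gzmc, and the same order in the library labelled cko, 17.5 and 30.7. The cells with Gzmc were deeper, with medians of 9340 and 7959 UMIs per cell against 4580 and 5501.5. The part of depth in these values was not tested. Gzma was found in 16 of 27 and 15 of 25 NK cells with Gzmc, against 19.2 and 15.8 cells if unrelated. Gzmb was found in 35 of 37 and 29 of 31 NK cells with Gzma, against 34.2 and 24.7. In CD8 T cells the correlation of Gzma with Gzmc was 0.29 and 0.09.

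Gzmk in CD8 T cells had correlations with Gzmc of 0.02 and -0.02, and lower ones with Gzmd (-0.16 and -0.05), Gzme (-0.19 and -0.09) and Gzmf (-0.07 and -0.06) in the libraries labelled wt and cko, all weak in sparse counts. Of the Gzmk cells, 19 of 20 and 17 of 19 held Gzmb, against 15.5 and 15.3 cells if detection of the genes were unrelated. Most cells with Prf1 also held Gzmb, which were 37 of 39 and 58 of 59 CD8 T cells with Prf1, and 28 of 28 and 22 of 26 NK cells with Prf1. Unrelated detection would give 30.1 and 47.7 cells in CD8 T cells and 25.8 and 20.7 in NK cells, where the counts thus lay near what the wide detection of Gzmb brings.

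Across the 158 and 202 NK, CD8 T, CD4 T and other T cells of the libraries labelled wt and cko, each member was compared with all 5389 genes found in at least 20 cells per library, and genes were ranked by the lower of the 2 Pearson correlations. Gzmd was most like Gzme (0.93 in wt, 0.94 in cko), and Gzmc most like Gzmd (0.79 and 0.68). Gzmf was closest to Gzme (0.44 and 0.76), Gzmb to Irf8 (0.47 and 0.47), an interferon regulatory factor, Prf1 also to Irf8 (0.46 and 0.47), and Nkg7 to Klrd1 (0.68 and 0.72), the CD94 receptor chain. Gzma was closest to Klrb1c (0.66 and 0.62), which is one of the NK gate genes. Gzmk was in 22 and 19 cells and was not ranked. These values mix differences between classes with those within a class.

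T cells with an NK marker lay between NK and CD8 T cells for summed Gzma in both libraries. Gzma stood at 1126 and 557 CPM in the libraries labelled wt and cko and was in 32.3% and 25% of cells. Gzmc stood at 968 and 1467 but 1 cell held 105 of 184 UMIs in wt and 215 of 224 in cko, and its share of cells, 22.6% and 20.8%, was below that of CD8 T cells. Gzmd had 6 and 0 UMIs, Gzme 5 and 0, and Gzmf 0 and 3, so these 3 genes were scarce in the 31 and 24 cells, while Gzmb was in 80.6% and 75% of them.

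The libraries labelled cko and wt were then compared within each class as a ratio of CPM, with an exact interval for counting error. With 1 library per genotype no test was made, and a gene with 20 or more UMIs over both libraries counts as past the fold at an absolute log2 ratio of 1 or more. In CD8 T cells 4 of 9 members were past the fold upward in the library labelled cko (Gzmc, Gzmd, Gzme and Gzmf) and 0 downward, against 3.85% and 1.65% of 6362 genes. With no limit on macrophage UMIs, Gzmc (1.27) and Gzmd (1.11) stayed past it, Gzme (0.76) and Gzmf (0.76) did not, and Gzmb (-1.08) and Gzmk (-1.02) passed it downward. In NK cells 0 of 8 were past it upward and 1 downward (Gzma), against 2.66% and 3.95% of 4708 genes. Gzma was no longer past it with no limit on macrophage UMIs (-0.95) or with at most 1 allowed (-0.74). It stayed past it under stricter gates (-1.09) and without the highest doublet scores (-1.42), where Gzme passed it too (-1.01). The median log2 ratio over all genes was 0.02 in CD8 T cells and -0.01 in NK cells.

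In CD8 T cells the 4 genes were higher in the library labelled cko, by alike amounts in the main setting only. The log2 ratio was 1.46 for Gzmc (95% counting interval 1.24 to 1.69), 1.48 for Gzmd (1.18 to 1.80), 1.47 for Gzme (1.13 to 1.83) and 1.51 for Gzmf (1.37 to 1.66). In the same order they were 2.01, 1.73, 1.59 and 1.63 without the top cell of each gene and library. With at most 1 macrophage UMI allowed they were 1.28, 1.53, 1.99 and 1.44. Summed, they gave 1423 CPM in the library labelled wt and 4011 in the library labelled cko. Without the top cell of the sum in each library the ratio was 1.76, and as a mean over cells of UMIs per 10000 it was 1.27. With no limit on macrophage UMIs it was 0.90, below the fold: the CD8 T cells of the library labelled wt then numbered 80, and their Gzmf went from 495 to 949 UMIs, with 454 in a single cell that the limit had set apart. The 4 genes share cells, so their ratios are not separate observations.

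Gzmb went the other way in CD8 T cells, with 5103 CPM in the library labelled wt and 2886 in the library labelled cko (log2 ratio -0.82, interval -0.90 to -0.75). The share of CD8 T cells with a UMI was 77.3% and 80.8%, and the median was 10.5 and 8.5 UMIs, while 8 of 66 and 5 of 104 cells had at least 100 UMIs. Gzma (-0.52) and Gzmk (-0.91, interval -1.57 to -0.25) were also lower in the library labelled cko. Prf1 (-0.18, interval -0.51 to 0.15) and Nkg7 (0.06, interval -0.02 to 0.14) were within counting error.

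In NK cells the ratios depended on single cells for most members. The log2 ratio of Gzma was -1.11 (interval -1.21 to -1.01), -0.91 without its top cell and -0.43 as a mean over cells of UMIs per 10000. Gzmb was at -0.20, at 0.11 without the top cell (interval -0.0035 to 0.22) and at 0.56 under stricter gates (interval 0.45 to 0.67). Gzmd was at -0.47 and Gzme at -0.999, but at 0.06 and -0.28 without the top cell, with intervals that include 0. Gzmf was at 0.54 and without the top cell at -0.07. Nkg7 was at 0.19 with all cells and at 0.20 without the top cell. By detection, Gzmd was in 19 of 52 and 8 of 49 NK cells, while Gzmc was in 27 of 52 and 25 of 49, or 25 and 18 with at least 2 UMIs.

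**Figure D5:**
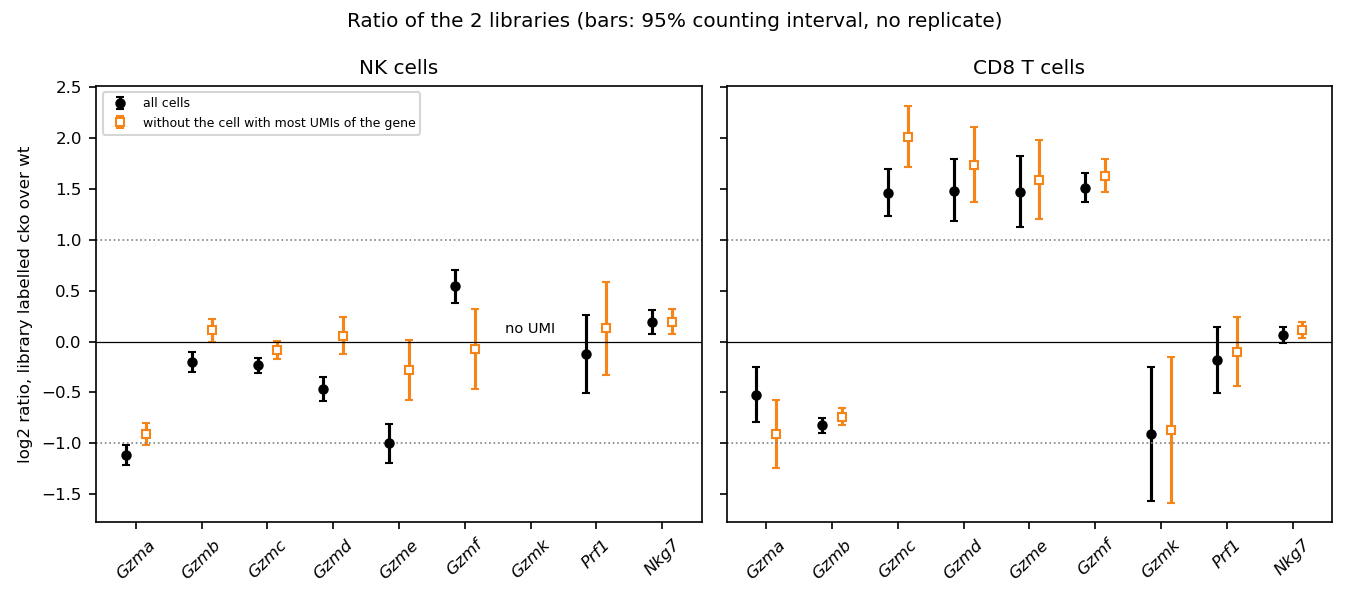
Log2 ratio of CPM in the library labelled cko over the library labelled wt (vertical axis) for each gene in NK cells (left) and CD8 T cells (right); bars are 95% counting intervals, filled circles use all cells and open squares leave out the cell with the most UMIs of the gene in each library. Gzmc, Gzmd, Gzme and Gzmf lie above 1 in CD8 T cells in both forms, and in NK cells Gzmb, Gzmd, Gzmf and Prf1 change sign without the top cell.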

How the data were processed

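The deposited matrices hold UMI counts per gene and cell, made by the authors with Cell Ranger and Seurat against mm10 (versions not given in the sources used here) from 10x 3′ libraries. Cells under 200 genes or over 10% mitochondrial UMIs were dropped (4 and 14 cells) and the others were classed by the marker gates stated in the report. The lowest cell had 3184 UMIs, and intervals cover counting error only. Members, gates and gene lists were chosen with earlier results of these data known; all 9 members are named, and of the other lists the genes past the threshold or, where none passed, the gene of highest level. Srgn and Tbx21 were named after their values were seen.

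UMIs were summed per class and library and tested with edgeR 4.0.16 in R 4.3.3 (quasi-likelihood, TMM, filterByExpr, library as block, threshold 0.05), with DESeq2 1.42.0 as an alternative. The SE follows from the F statistic and leaves out the spread between cells. On simulated counts for the 5539 genes, 39 of 100 changes of 1 and 83 of 100 changes of 2 on the log2 scale were recovered, with 1 false call. The simulation gave all genes the same dispersion (0.012), with no difference between libraries and no single cells that dominate a sum. It therefore does not measure the error for members whose library values differ or whose sums rest on few cells. Both classes of a library come from the same pooled mice, which is where the pairing in the block comes from. Ratios between libraries have exact conditional binomial intervals at 95%. Shares were repeated on cells thinned to 3000 and 1000 UMIs (0 cells left out). Scrublet, run in scanpy 1.11.5, marked 0.136% of cells, under the 0.5% taken as failure, so doublets were kept and, as an alternative, the 48 and 59 cells of highest score were removed. Other alternatives were stricter gates, other limits on macrophage UMIs, all T cells, no filter on low counts, other scaling factors, and leaving out the top cell or a library.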

Additional observations from a re-analysis of the deposited data

Results flagged for a closer look

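Gzmb and Gzmf went opposite ways between NK and CD8 T cells in the 2 libraries. The log2 ratio of NK over CD8 T cells was -0.20 in the library labelled wt and 0.42 in the library labelled cko for Gzmb, and 0.64 and -0.33 for Gzmf. Each class was a single sum per library, so the difference between libraries was not tested. For Gzmf, 1 NK cell per library held 78.6% and 86.0% of the sum, and without the top cells Gzmf was lower in NK cells in both libraries, 266 against 628 CPM in wt and 253 against 1944 in cko.

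Between the libraries, 3 genes of the chromosome 14 row went opposite ways in NK and CD8 T cells. The log2 ratio of the library labelled cko over the library labelled wt was -0.23 in NK cells and 1.46 in CD8 T cells for Gzmc, -0.47 and 1.48 for Gzmd, and -0.999 and 1.47 for Gzme. These differences were not tested. Without the top cell of each library the NK values were -0.08, 0.06 and -0.28, with intervals that include 0, and the CD8 T values were 2.01, 1.73 and 1.59.

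The mast cell and basophil gate, which enters no comparison, held 241 Gzmb UMIs in the 4 cells of the library labelled wt. A single cell of 10831 UMIs held 228 of them, and the others held 0, 9 and 4. The 1 such cell of the library labelled cko held 0.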

How the results depend on the processing

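Of 556 values recomputed under other settings, 446 kept their direction and side of the threshold or moved by less than their error, 92 moved, 8 reversed, 6 lost and 4 gained a call. Counts of genes that stayed within a set factor of the main count are among the 446. All 8 reversals are of NK against CD8 T cells. Ratios between libraries that changed sign, as several did in NK cells, are among the 92 or, inside their interval, the 446. The 4 gained calls (Gzmb in 2 settings, Gzmf and Prf1 in 1 each) came from fits against all T cells or with at most 1 macrophage UMI, where edgeR, as without a filter on low counts, took the spread wholly from other genes, so their p-values cover little beyond counting error. The count of genes higher in NK cells (273) was 71 under DESeq2, and that higher in CD8 T cells (242) was 40 under DESeq2, 137 without the highest doublet scores, 371 without a filter on low counts and 391 against all T cells. Gzmb reversed to -0.13 under stricter gates, -0.016 without the top cell and -0.17 without the library labelled cko, and was 0.46 without the library labelled wt. Gzmf reversed to -2.49 with at most 1 macrophage UMI, -0.048 with no limit, -2.07 without the top cell and -0.29 without the library labelled wt, and was 0.67 without the library labelled cko. Nkg7 reversed to 0.062 against all T cells. The summed ratio of Gzmc to Gzmf between libraries was, in CD8 T cells, 0.90 with no macrophage limit, 1.76 without the top cell and 1.27 as a mean over cells per 10000 UMIs, and in NK cells -0.16 under stricter gates, 0.18 without the top cell and -0.39 as mean raw UMIs per cell. Thinned to 1000 UMIs, Gzmb was in 75% and 63.3% of NK cells and 65.2% and 52.9% of CD8 T cells. The causes were not tested, apart from the top cells, whose share of each sum is given. Without the replicate block, that is without pairing classes by library, 263 and 222 genes were called, 4 and 1 of them members, with Nkg7 lost (edgeR adjusted p = 0.13). Leaving out a library leaves no residual spread, so no count of calls exists there. Sparse genes such as Gzmk and Prf1 are limited by depth.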

Other observations

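Gzmg was found in 60 of 2106 macrophages and monocytes of the library labelled wt (2.85%) and 11 of 2317 of the library labelled cko (0.475%), at most 5 UMIs in a cell. In the library labelled wt a single NK cell held 1245 Gzmg UMIs, together with 1071 of Gzmc, 1071 of Gzmd, 492 of Gzme and 447 of Gzmf. The cell of the library labelled cko with the most Gzmf (614 UMIs) held 373 of Gzmg and 1 of Gzma. Among the 45 cells of the library labelled wt that met a T or NK gate but exceeded the limit on macrophage UMIs, 1 cell held 1043 of 1351 Gzmb UMIs.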
